A study of Mus musculus with 4 samples.

Results

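The enzymes that write, copy and remove DNA methylation were examined in 4 sorted fractions of a mouse acute myeloid leukaemia. The genes, chosen by symbol, were Dnmt1, Dnmt3a, Dnmt3b, Uhrf1, Hells, Tet1, Tet2, Tet3 and Tdg. Of these 9 genes, 8 had a probe set of their own, among 18193 genes on the array that did. The leukaemia came from bone marrow of NS-GFP transgenic mice into which HoxA9 and Meis1, homeobox genes that together transform myeloid progenitors, had been introduced. In NS-GFP, green fluorescent protein is made under a promoter region of nucleostemin, the Gnl3 product, a GTPase of the nucleolus in proliferating cells. Leukaemia cells of bone marrow, on the C57BL/6 background, were sorted by this reporter and by c-Kit, the stem cell factor receptor of immature blood cells. Cells positive for c-Kit gave a fraction with high (NS-GFPhigh) and one with middle (NS-GFPmiddle) reporter, called c-Kit+ high and c-Kit+ middle here. Cells negative for c-Kit gave one with middle and one with low reporter (NS-GFPlow), called c-Kit- middle and c-Kit- low. All 4 carry the same introduced genes and reporter, and no fraction without leukaemia was analysed here. The labels do not say how many mice or independent leukaemias were used or whether animals were pooled.

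Each fraction was measured on 1 array (total RNA, biotin-labelled, Affymetrix), so no test between fractions can be run and no p-value or error across samples is given. Differences are described as ratios of signals, and at least 2-fold is used as the size of a difference. A signal below the floor of 15.2, the median of all signals, was read as that floor, and a ratio with 1 array below it is a lower bound. The repeat measurement available is a second probe set of the same gene. The SD of 1 probe set's log2 ratio was taken over all genes whose brightest and second sets were both above the floor on both arrays. Sets under the floor are thus not covered by it. This SD was 0.48 between the ends (c-Kit+ high over c-Kit- low) and 0.37 between the middle gates (c-Kit+ middle over c-Kit- middle). It was 0.30 within c-Kit+ cells (high over middle) and 0.37 within c-Kit- cells (middle over low). This SD covers probe error, and the spread between sorts or animals is unknown. In bulk samples, fewer cells of a type and less RNA per cell cannot be told apart.

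In mammals, methyl groups sit mainly on cytosines followed by guanine. Dnmt1 copies the pattern onto the new strand behind the replication fork, Uhrf1 brings it to hemimethylated sites, and Hells, a chromatin remodeller also called Lsh, opens packed DNA for methylation. Dnmt3a and Dnmt3b set new methyl groups, the TET enzymes oxidise methylcytosine, and Tdg, a DNA glycosylase, cuts out the most oxidised forms. In human acute myeloid leukaemia, DNMT3A and TET2 are among the genes often mutated.

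The RefSeq promoters of the copying machinery are shown because Dnmt1, Uhrf1 and Hells had the same order of signals over the fractions. All 9 genes have a promoter in the reference table (GRCm38.p6), with 14 start sites in all, and each window covers 250 bases before the start to 50 after. Both strands were searched for the letters of an E2F-type site (TTCCCGC or TTCGCGC or TTGCCGC or TTGGCGC), the kind of site through which E2F factors act on replication genes. Capitals mark the matches. They are found at 1 of 3 start sites of Dnmt1, at both of Uhrf1 and at that of Hells, and at none of the other 6 genes. Of all 32851 promoters, 9.57% hold such a match, and of the 3837 with at least 30 CG pairs, 25.4% do.

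Dnmt1, chr9:20952574-20952873, minus strand: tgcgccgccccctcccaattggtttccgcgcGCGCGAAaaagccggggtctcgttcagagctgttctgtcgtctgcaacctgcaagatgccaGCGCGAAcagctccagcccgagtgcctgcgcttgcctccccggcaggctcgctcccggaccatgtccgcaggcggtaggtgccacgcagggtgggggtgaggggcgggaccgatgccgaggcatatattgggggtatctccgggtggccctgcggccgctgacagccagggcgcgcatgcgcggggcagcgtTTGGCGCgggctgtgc
Uhrf1, first start, chr17:56303087-56303386, plus strand: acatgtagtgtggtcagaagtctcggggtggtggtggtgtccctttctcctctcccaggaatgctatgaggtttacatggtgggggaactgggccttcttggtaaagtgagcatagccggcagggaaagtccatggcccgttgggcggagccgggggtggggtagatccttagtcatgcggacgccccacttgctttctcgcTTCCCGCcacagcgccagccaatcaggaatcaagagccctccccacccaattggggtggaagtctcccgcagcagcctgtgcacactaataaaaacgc
Uhrf1, second start, chr17:56304063-56304362, plus strand: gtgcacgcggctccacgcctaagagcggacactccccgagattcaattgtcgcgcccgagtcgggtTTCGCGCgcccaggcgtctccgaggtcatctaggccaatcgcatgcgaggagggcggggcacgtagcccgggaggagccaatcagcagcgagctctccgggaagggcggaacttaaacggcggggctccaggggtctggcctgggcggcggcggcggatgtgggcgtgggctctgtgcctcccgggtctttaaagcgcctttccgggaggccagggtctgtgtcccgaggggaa
Hells, chr19:38930740-38931039, plus strand: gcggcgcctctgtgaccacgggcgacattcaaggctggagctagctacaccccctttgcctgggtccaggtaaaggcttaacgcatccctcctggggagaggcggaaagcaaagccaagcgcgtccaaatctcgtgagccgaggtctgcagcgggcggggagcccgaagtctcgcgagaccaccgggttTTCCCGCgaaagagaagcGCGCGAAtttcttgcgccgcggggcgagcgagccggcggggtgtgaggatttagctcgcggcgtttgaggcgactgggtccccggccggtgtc
Tet2, chr3:133544341-133544640, minus strand: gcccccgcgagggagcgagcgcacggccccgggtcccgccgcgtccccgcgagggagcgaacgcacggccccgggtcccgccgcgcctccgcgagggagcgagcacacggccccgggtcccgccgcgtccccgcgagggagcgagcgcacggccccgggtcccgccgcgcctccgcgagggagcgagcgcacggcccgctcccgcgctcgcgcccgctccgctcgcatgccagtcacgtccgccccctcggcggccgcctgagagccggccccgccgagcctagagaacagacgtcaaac

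The Dnmt1 window holds 3 matches, at -219, -158 and 34 counted from the start site as 0. Hells holds 2, at -61 and -43, and Uhrf1 1 at each start, at -48 and -184. Tet2, shown because its signals ran the other way, holds none of these letters. Its window has 57 CG pairs, more than in 99.8% of promoters (median 7), against 33 in the Dnmt1 window, 12 and 33 in those of Uhrf1 and 34 in that of Hells. Dnmt3a had 46, 47 and 18 CG pairs at its 3 starts and Dnmt3b 30. The CCAAT box (CCAAT) was found at 2 of 3 starts of Dnmt1, at both of Uhrf1 and in Tet3 and Tdg, and in 37.4% of all promoters. The CHR element of cell cycle promoters (TTTGAA) was found in Dnmt3b and at 1 start of Dnmt1, and in 17.9% of all promoters. Some CCAAT matches of Dnmt1 and Uhrf1 overlap each other on opposite strands, whereas no E2F-type match overlaps another motif. Matched letters describe the window and do not show that a factor binds.

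**Figure D1:**
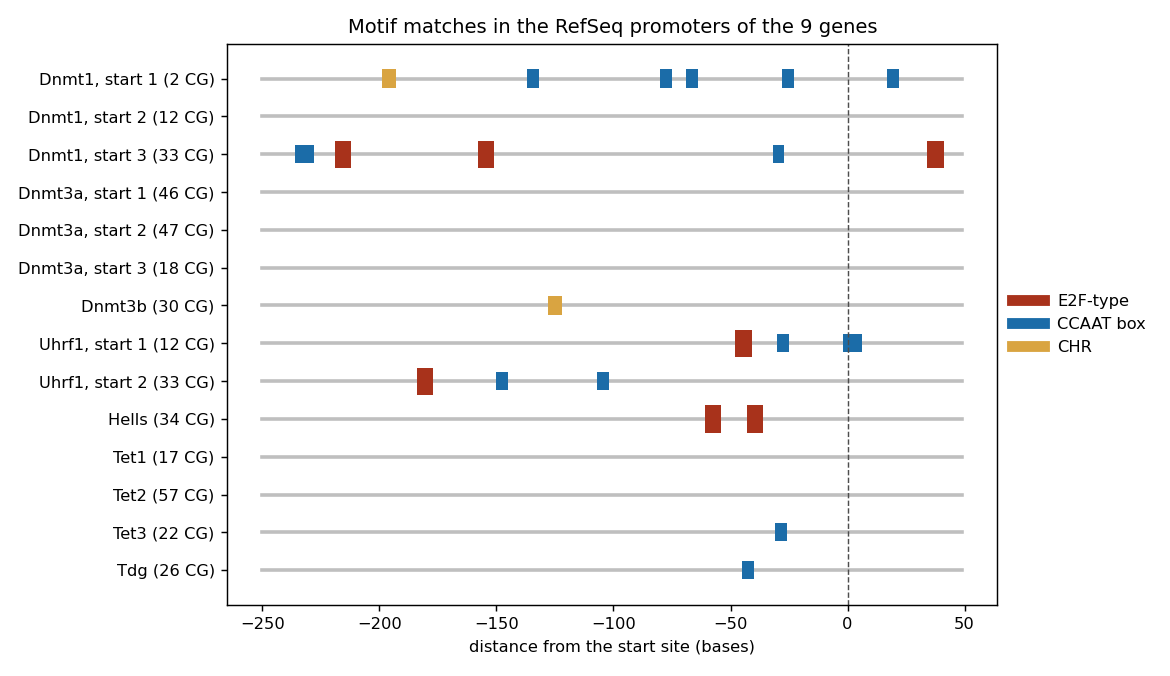
Motif matches in the RefSeq promoters of the 9 genes, 1 line per start site, by distance in bases from the start site (dashed line), with the number of CG pairs in brackets. E2F-type matches (tall red) lie in 1 Dnmt1, 2 Uhrf1 and 1 Hells window and in none of the others, and Tet2 has the most CG pairs, 57.

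The sort was checked on its own genes. Kit had signals of 479 in c-Kit+ high and 690.2 in c-Kit+ middle, against 26.4 in c-Kit- middle and a value under the floor, 6.58, in c-Kit- low. For nucleostemin, Gnl3 had 1299 and 1109 in the c-Kit+ fractions, against 584 and 183. Every array had Lyz2, lysozyme, and Csf1r, a macrophage growth factor receptor, above the floor, while the defining T cell genes Cd3e, Cd3d and Cd3g were under it throughout. The B cell genes were split. Cd79a and Ms4a1 were under the floor on all arrays. Cd79b, a subunit of the B cell receptor, had 98.9 and 143 in the c-Kit+ fractions, against 163 and 162. Ighm, an immunoglobulin heavy chain gene, had 1535 and 1987, against 2572 and 2236. The other listed B cell genes above the floor on any array were highest in c-Kit- low. Igha had 65.4 and 11.8, the second under the floor, in the c-Kit+ fractions, against 609 and 4915. Jchain had 538 on the c-Kit- low array, against 41.6 on the c-Kit- middle array, and Cd22 had 131, against 16.5. The c-Kit- low array held the most signal of other blood cells. Of 9 T and NK cell genes on the array, 2, 1, 1 and 6 were above the floor from c-Kit+ high to c-Kit- low, with summed signals of 96.0, 50.3, 118 and 698. Of 10 MHC class II and dendritic cell genes 3, 3, 5 and 9 were (802, 1016, 1447 and 4654), and of 8 B cell genes 4, 2, 5 and 6 (1745, 2190.2, 3417 and 8018). Of 6 erythroid genes 2, 1, 2 and 3 were above it (43.0, 46.1, 59.9 and 118), and of 8 stroma and endothelium genes 2, 1, 2 and 2 (92.3, 95.9, 90.9 and 101). The 10 late neutrophil genes summed to 4587, 4526, 6728 and 13669.7, with 8, 8, 10 and 10 above the floor, and the 11 monocyte and macrophage genes to 5455, 6680.4, 17559 and 26937, with 8, 9, 10 and 10. As a sign of RNA and labelling quality, the Actb control probe sets had a 3' over 5' ratio of 4.70 and 3.98 in c-Kit+ high and middle, against 3.28 and 2.50 in c-Kit- middle and low, and those of Gapdh one of 3.41 and 3.10, against 3.91 and 3.37. Their part in the results below was not tested. For the DNA methylation genes and for each list, c-Kit+ high was therefore also set against c-Kit- middle.

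The 9 genes had 25 probe sets. Of these, 22 were listed with 1 gene and belonged to 8 of the genes. The 3 probe sets that list Tdg also list its pseudogenes Tdg-ps and Tdg-ps2, so no value can be given to Tdg itself. Of the 22, 15 were above the floor on all 4 arrays, 5 on some and 2, both of Tet1, on none. Each gene was read from its brightest probe set, and the others are given beside it.

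**Figure D2:**
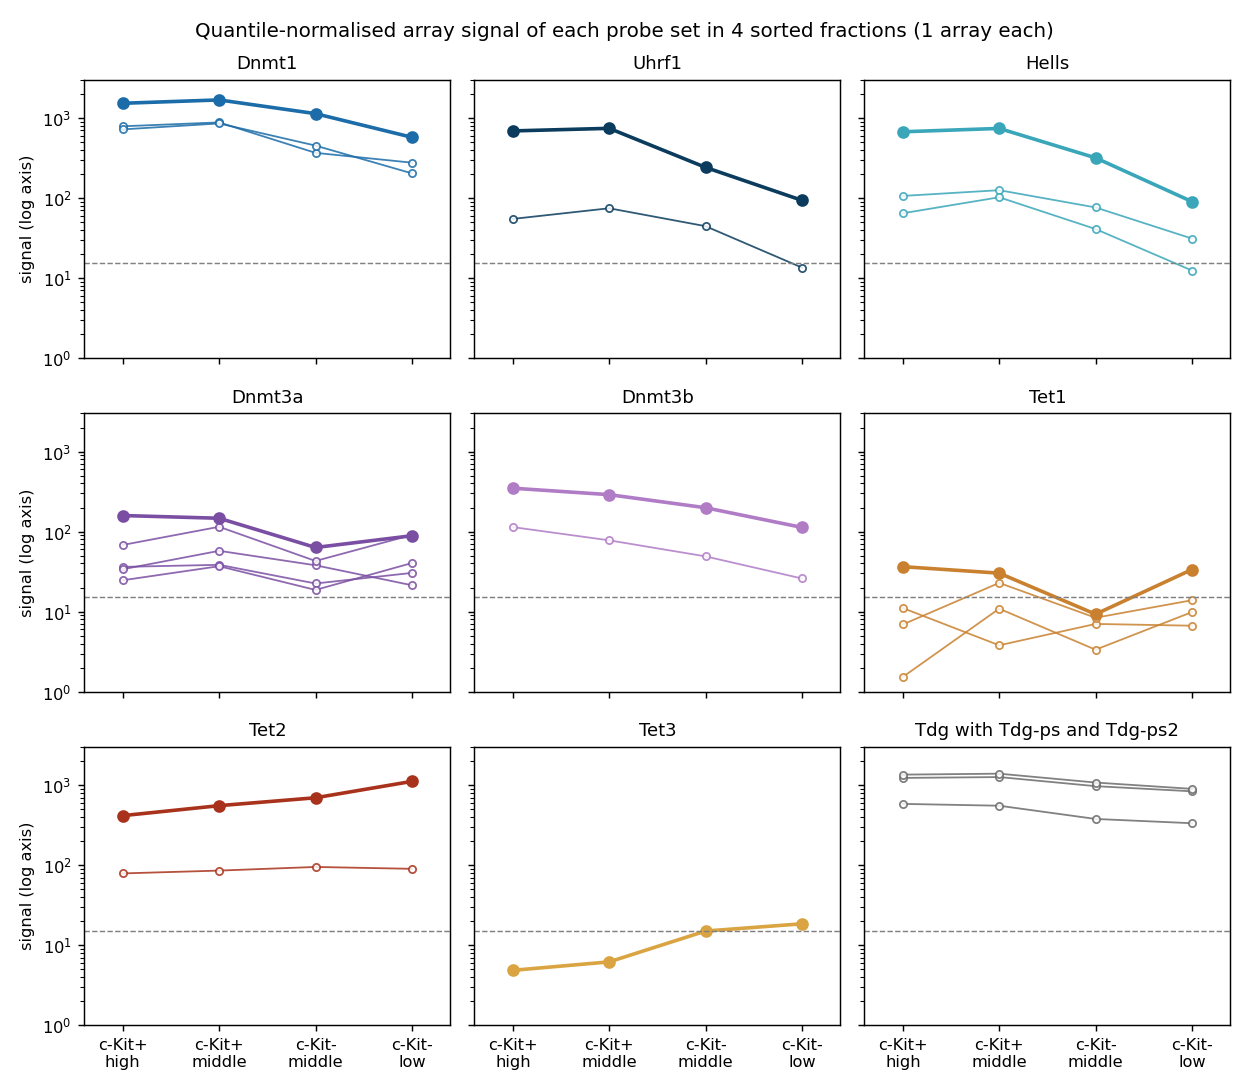
Quantile-normalised signal (log axis) of each probe set over the fractions (c-Kit+ high and c-Kit+ middle, then c-Kit- middle and c-Kit- low), 1 array each, with filled points for the brightest probe set of a gene, open points for the others and a dashed line at the floor of 15.2. Dnmt1, Uhrf1, Hells and Dnmt3b are higher in both c-Kit+ fractions than in both c-Kit- fractions, while the brighter Tet2 probe set is lowest in c-Kit+ high, at 418, and highest in c-Kit- low, at 1119.

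The genes that copy methylation at replication were higher in the c-Kit+ fractions. By the brightest probe sets, Uhrf1 and Hells showed the largest ratios of the 8 measured genes in c-Kit+ high over c-Kit- low. Uhrf1 was 7.37-fold and Hells 7.44-fold higher there, ranking 120 and 118 from the top of 11284 genes. Not all other sets kept this order, as the second Hells set gave a log2 ratio of 1.76 and the second Dnmt3b set 2.13. Of the 8 genes, 4 were at least 2-fold higher (Uhrf1, Hells, Dnmt1 and Dnmt3b) and 1, Tet2, was lower. Over all genes 29.7% passed 2-fold in this comparison, 16.1% higher and 13.6% lower. The median log2 ratio of the 8 was 1.12, beside 0.09 over all genes. Set against c-Kit- middle rather than c-Kit- low, c-Kit+ high was at least 2-fold higher for 4 of the 7 measured (Uhrf1, Dnmt3a, Tet1 and Hells) and lower for none, while 11.4% of all genes passed, 4.90% higher and 6.52% lower. Dnmt1 (1.35-fold higher) and Dnmt3b (1.76-fold) were then under 2-fold. Tet1 passed by a lower bound, with 36.5 in c-Kit+ high and 9.30, under the floor, in c-Kit- middle. Its other sets were under the floor on both arrays. These counts rest on the brightest probe sets, and for 5 genes at least 1 other set fell on the opposite side of 2-fold. They gave log2 ratios of 0.30 for Uhrf1, 0.47 and 0.65 for Hells and from -0.16 to 0.69 for Dnmt3a, all under 2-fold. For Dnmt1 the set without the _x_at suffix described below was 2.15-fold and the third set 1.59-fold higher, and for Dnmt3b the second set was 2.32-fold higher. Genes of dividing cells moved with these results: between the ends 24 of 26 S phase genes (median log2 ratio 2.12) and all 19 G2 and M phase genes (median 2.95) were at least 2-fold higher. On their brightest probe sets, Uhrf1 and Hells each lay above 23 of the 26, Dnmt3b above 8 and Dnmt1 above 6. The second Hells set, at 1.76, lay under the S phase median, and the second Dnmt3b set, at 2.13, just above it. The second Uhrf1 set gave at least 1.84 and the third Hells set at least 2.08. The part of dividing cells in the result was not tested. In c-Kit+ high over c-Kit- middle, 1 of the 26 S phase genes (median 0.44) and 3 of the 19 G2 and M phase genes (median 0.65) were at least 2-fold higher.

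Uhrf1, the reader of hemimethylated DNA, had signals of 688 in c-Kit+ high and 741 in c-Kit+ middle, against 241 in c-Kit- middle cells and 93.4 in c-Kit- low cells. Both c-Kit+ arrays were thus far above both c-Kit- arrays, and the c-Kit+ arrays lay close together. The dimmer second probe set had 54.7 and 74.3, against 44.4 and 13.5, the last below the floor. It gave the same order of fractions with smaller ratios, at least 1.84 on the log2 scale between the ends, where the brighter set gave 2.88.

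Hells, the remodeller, had signals of 671 in c-Kit+ high and 739 in c-Kit+ middle, against 317 in c-Kit- middle cells and 90.1 in c-Kit- low cells. Its second probe set had 106 and 125, against 76.1 and 31.1, and the third 64.4 and 102, against 40.9 and 12.4, below the floor. All 3 probe sets were highest in c-Kit+ middle and lowest in c-Kit- low. The second gave a log2 ratio of 1.76 between the ends, against 2.90 for the brightest.

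Dnmt1, the copying methyltransferase, had signals of 1524 in c-Kit+ high and 1678 in c-Kit+ middle, against 1131 in c-Kit- middle cells and 573 in c-Kit- low cells, 2.66-fold higher between the ends. The name of this brightest probe set ends in _x_at, a suffix for sets with probes that can also match other transcripts. The set without that suffix had 786 and 879, against 366 and 276, and the third, also _x_at, 719 and 853, against 451 and 203. All 3 sets put the fractions in the same order. Their log2 ratios between the ends were 1.41, 1.51 and 1.82.

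At the middle NS-GFP gate the labels differ in the c-Kit gate alone. There, 3 of 7 measured genes were at least 2-fold higher in the c-Kit+ cells, and none was lower. These 3 were Uhrf1 (3.08-fold), Hells (2.34-fold) and Dnmt3a (2.32-fold). The fractions also differed in Gnl3, at 1109 in c-Kit+ middle against 584 in c-Kit- middle. Summed monocyte and macrophage signals were 6680.4 against 17559, and the part of such differences was not tested. Over all genes 8.86% passed 2-fold here, 3.57% higher and 5.29% lower. Uhrf1 ranked 74, Hells 222 and Dnmt3a 225 from the top of 11080 genes. The median log2 ratio of the 7 was 0.99, beside 0.02 over all genes. That median is the value of Tet1, a lower bound with 9.30, under the floor, in c-Kit- middle. Probe sets differed in size but not in sign, with log2 ratios of 0.74 and 1.62 for Uhrf1, from 0.71 to 1.32 for Hells and from 0.57 to 1.27 for Dnmt1. Dnmt1 was thus 1.48-fold higher by its brightest probe set, and at least 2-fold higher only by the set without the _x_at suffix.

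The S phase genes stood elsewhere in the same comparison. None of 26 genes of DNA replication and its supply, Uhrf1, Hells and Dnmt1 not counted, reached 2-fold between the middle gates (median log2 ratio 0.30), and the highest were Ccne2, a cyclin of S phase entry (0.92), and Rfc3, a clamp loader subunit (0.81). The brightest probe sets of Uhrf1, Hells and Dnmt3a (1.62, 1.22 and 1.21) lay above all 26, and those of Dnmt1 and Dnmt3b above 21. The second Uhrf1 and Hells probe sets, at 0.74 and 0.71, and the Dnmt3a sets at 0.60 and 0.77 did not lie above all 26. The Dnmt1 set without the _x_at suffix, at 1.27, did. The probe-set SD of this comparison was 0.37. All 19 measured G2 and M phase genes were below Uhrf1, Hells and the 3 DNA methyltransferases in this comparison, with a median of -0.07.

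Between the c-Kit- fractions the order turned for Uhrf1, Dnmt1, Dnmt3a and Dnmt3b, which lay under the S phase median, but not for Hells. In c-Kit- middle over c-Kit- low, 22 of the 26 S phase genes were at least 2-fold higher (median 1.68), as were all 19 G2 and M phase genes (median 2.40). Uhrf1 was 2.58-fold higher (log2 ratio 1.37, above 8 of the 26 S phase genes) and Hells 3.51-fold (1.81, above 15). Dnmt1 was 1.97-fold higher (0.98, above 4) and Dnmt3b 1.75-fold (0.81, above 2). These places in the list rest on the brightest probe sets. For Dnmt1 the set without the _x_at suffix gave 0.41 and the third set 1.15, and the second Dnmt3b set gave 0.92. The second Hells set gave 1.29, the third at least 1.42, and the second Uhrf1 set at least 1.54. In all, 2 of the 8 genes were at least 2-fold higher and 1, Tet1, lower, with its c-Kit- middle signal under the floor. Of all genes, 12.1% passed 2-fold, 6.66% higher and 5.46% lower. Both comparisons use the c-Kit- middle array, so a low value on it raises the one ratio and lowers the other.

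**Figure D3:**
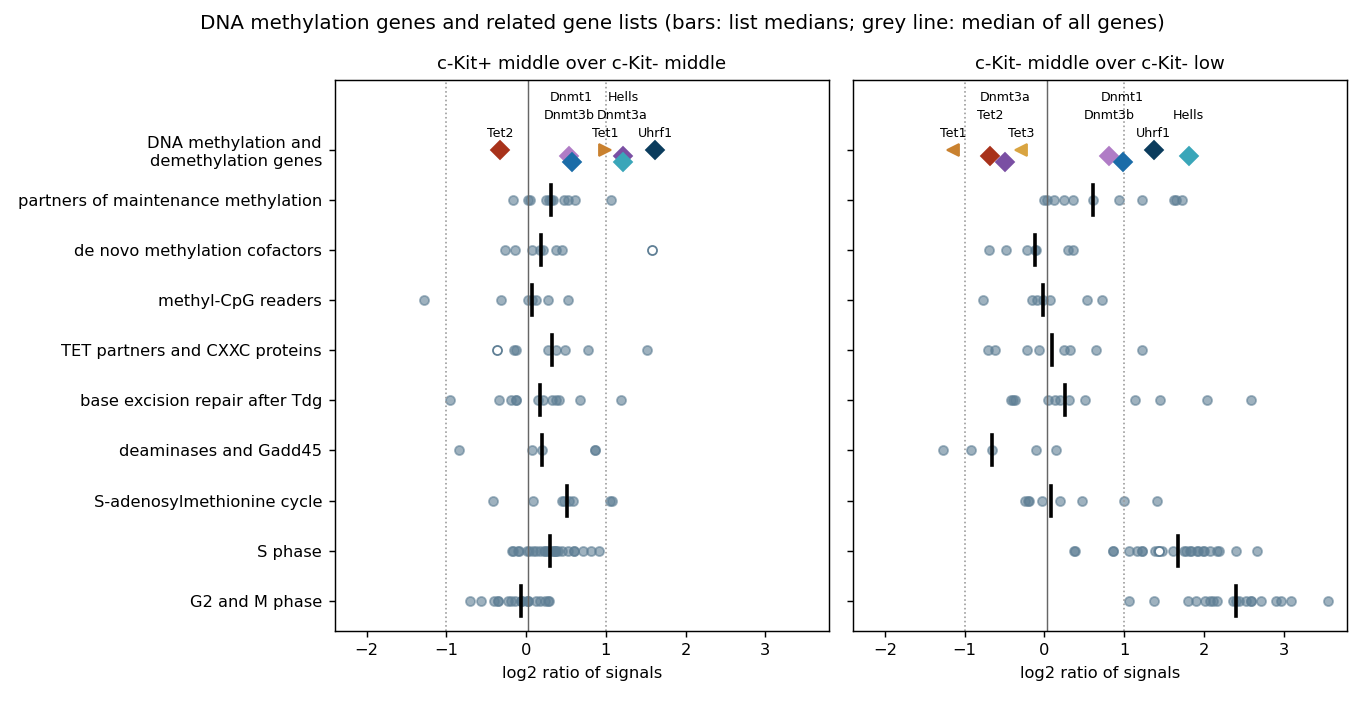
Log2 ratios of c-Kit+ middle over c-Kit- middle (left) and of c-Kit- middle over c-Kit- low (right) for the DNA methylation genes (coloured, triangles are lower bounds) and for related lists (points, open where a lower bound), with list medians as bars, the median of all genes as a grey line and 2-fold as dotted lines. Each gene is read from its brightest probe set. On the left Uhrf1, Hells and Dnmt3a lie above every S phase gene so read, which not all their other sets do. On the right the S phase median of 1.68 lies above Uhrf1, Dnmt1, Dnmt3a and Dnmt3b and below Hells, at 1.81.

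Within the c-Kit+ cells, no measured gene of the 7 reached 2-fold between the high and the middle NS-GFP gate, where 2.04% of all genes did, 1.02% higher and 1.01% lower. Uhrf1, Hells and Dnmt1 had log2 ratios of -0.11, -0.14 and -0.14 on their brightest probe sets. All 8 probe sets of these genes were below 0, down to -0.67 for the third Hells set, and the S phase list had a median of 0.27 and the G2 and M phase list of 0.72. The brightest sets thus differed by less than the probe-set SD of 0.30.

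Dnmt3b, a setter of new methylation, had signals of 349 in c-Kit+ high and 289.9 in c-Kit+ middle, against 199 in c-Kit- middle cells and 113 in c-Kit- low cells. The second probe set had 114 and 77.9, against 49.1 and 26.0. Both sets decline in the same order over the 4 fractions, and no other gene of the 8 has its brightest set in that order. Between the ends Dnmt3b was 3.08-fold higher in c-Kit+ high (log2 ratio 1.62, and 2.13 on the second set). The single steps were 0.27, 0.54 and 0.81 on the log2 scale, from c-Kit+ high over c-Kit+ middle to c-Kit- middle over c-Kit- low. The first of these is smaller than the probe-set SD of its comparison.

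Dnmt3a, the other setter of new methylation, was higher in c-Kit+ cells of the middle gate by all 5 probe sets, with log2 ratios from 0.60 to 1.42. Its brightest set had signals of 159 in c-Kit+ high and 147 in c-Kit+ middle, against 63.4 in c-Kit- middle cells and 88.9 in c-Kit- low cells. The second brightest set had 68.2 and 115, against 43.0 and 91.0. The lowest array of the brightest set was therefore c-Kit- middle, not c-Kit- low. The other 3 sets lay between 18.7 and 57.6 on all arrays. Between the ends the 5 sets disagreed in sign, with log2 ratios from -0.71 to 0.84, and no direction is given. In c-Kit- middle over c-Kit- low 4 of the 5 were below 0 and 1 was above, from -1.12 to 0.83. Under a 75th percentile floor the log2 ratio between the middle gates was 0.59, under 2-fold.

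Tet2 was the gene that ran the other way. Tet2, which oxidises methylcytosine and restrains myeloid stem cell expansion, had signals of 418 in c-Kit+ high and 557 in c-Kit+ middle, against 699 in c-Kit- middle cells and 1119 in c-Kit- low cells. It was 2.68-fold lower between the ends, ranking 934 from the bottom of 11284 genes. The steps were -0.41, -0.33 and -0.68 on the log2 scale, so no neighbouring pair reached 2-fold. The second probe set did not show this size, with signals of 79.3 and 86.0, against 95.5 and 90.5, and a log2 ratio of -0.19 between the ends. For c-Kit+ high over c-Kit- middle the brighter set gave -0.74, less than 2-fold. The summed monocyte and macrophage and late neutrophil signals above run in nearly the same order as the brighter Tet2 set, and their part in it was not tested.

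Tet1 and Tet3 were at the edge of detection. For Tet1, the founding gene of the family, 1 of 4 probe sets was above the floor in more than 1 fraction, with signals of 36.5 in c-Kit+ high and 30.3 in c-Kit+ middle, against 9.30 in c-Kit- middle cells and 33.6 in c-Kit- low cells. The single low array was c-Kit- middle. Tet1 was at least 1.99-fold higher in c-Kit+ middle than there, and c-Kit- middle was at least 2.21-fold lower than c-Kit- low. Another set had 22.9 in c-Kit+ middle cells and lay under the floor elsewhere. Tet3, the third member of the family, has 1 probe set, with 4.88 and 6.22 in c-Kit+ high and middle, against 15.1 in c-Kit- middle cells and 18.6 in c-Kit- low cells, above the floor in the last alone. At this signal a difference in Tet3 was not detectable beyond a bound of at least 1.22-fold lower in c-Kit+ high.

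The 3 probe sets shared by Tdg and its pseudogenes had signals of 1237, 1360.5 and 586 in c-Kit+ high, of 1268, 1398 and 556 in c-Kit+ middle, with 976, 1083 and 380.0 in c-Kit- middle cells and 842, 903 and 336 in c-Kit- low. All 3 were lowest in c-Kit- low and higher in both c-Kit+ fractions than in both c-Kit- fractions. Their log2 ratios between the ends, 0.56, 0.59 and 0.80, were under 2-fold, and those between the middle gates ran from 0.37 to 0.55.

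**Figure D4:**
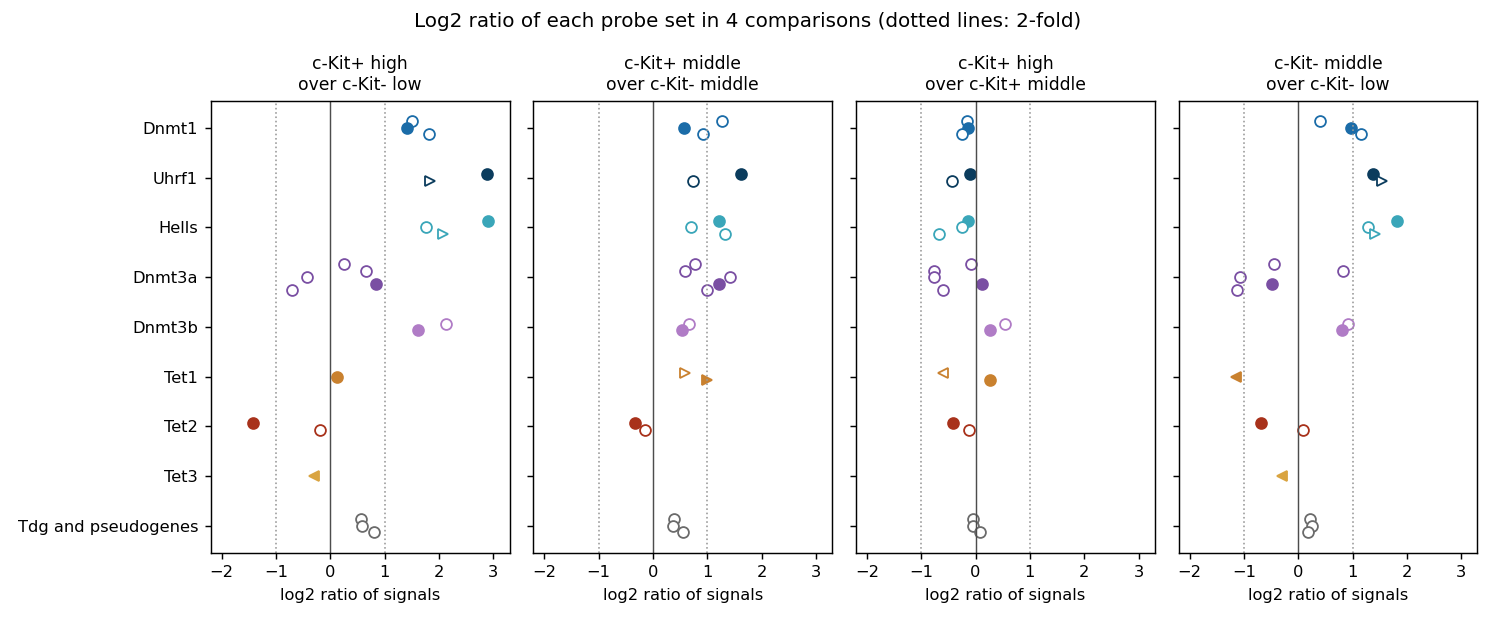
Log2 ratio of each probe set in the 4 comparisons, with filled symbols for the brightest probe set of a gene, open symbols for the others, triangles for lower bounds and dotted lines at 2-fold. The brightest sets of Uhrf1 and Hells lie furthest to the right between the ends (2.88 and 2.90). All 5 Dnmt3a sets lie above 0 between the middle gates, and in c-Kit+ high over c-Kit+ middle no set reaches 2-fold.

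Other genes of the pathway were described from lists. Beside their counts, 29.7% of all genes passed 2-fold between the ends, 16.1% higher and 13.6% lower. Between the middle gates 8.86% did, and in c-Kit+ high over c-Kit- middle 11.4%. Of 11 partners of maintenance methylation, 6 were at least 2-fold higher between the ends and none lower (median log2 ratio 1.26). The 3 furthest were Cdca7, which works with Hells (5.87-fold), Chaf1b, a subunit that assembles nucleosomes at the fork (4.30-fold), and Lig1, the ligase that joins the new strand (3.96-fold). Between the middle gates Cdca7 alone passed (2.11-fold), with signals of 417 in c-Kit+ high and 459 in c-Kit+ middle, against 218 in c-Kit- middle cells and 71.0 in c-Kit- low cells. Cdca7 thus had the order of fractions of Hells. Against c-Kit- middle, none of the 11 partners was 2-fold higher in c-Kit+ high cells, with Cdca7 at 1.91-fold, Chaf1b at 1.30-fold and Lig1 at 1.26-fold.

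Of 8 measured cofactors of de novo methylation, none passed 2-fold between the ends (median 0.08). Dnmt3l, a partner of Dnmt3a and Dnmt3b without catalytic activity of its own, had signals of 21.5 and 45.5 in c-Kit+ high and middle, against 11.2 and 8.12, both under the floor, in c-Kit- middle and low. It was at least 2.99-fold higher between the middle gates and, within c-Kit+ cells, 2.12-fold lower at the high gate. No cofactor passed 2-fold in c-Kit+ high over c-Kit- middle.

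Of 7 methyl-CpG readers 1 passed 2-fold between the ends. Zbtb4, a zinc finger protein that binds methylated DNA, was 7.78-fold lower in c-Kit+ high, with signals of 21.8 and 41.1 in c-Kit+ high and middle, against 99.6 in c-Kit- middle cells and 169.7 in c-Kit- low cells. Between the middle gates it was 2.42-fold lower in c-Kit+ cells, and in c-Kit+ high over c-Kit- middle 4.57-fold lower, the only reader of the 7 past 2-fold there.

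Among 8 measured TET partners and CXXC proteins, 3 were at least 2-fold higher between the ends and 1 lower (median 0.00). Idh3a and Idh2, mitochondrial enzymes that make 2-oxoglutarate, the cofactor of TET enzymes, were 3.59-fold and 2.72-fold higher in c-Kit+ high. Sinhcaf, a subunit of the Sin3 and histone deacetylase complex, was 3.36-fold higher, and 2.84-fold higher between the middle gates. Cxxc5, a CXXC protein, was at least 2.10-fold lower, with 32.0 in c-Kit- low and signals below the floor in both c-Kit+ fractions. Against c-Kit- middle, Sinhcaf alone passed 2-fold in c-Kit+ high cells (2.68-fold higher), while Idh2 was 1.73-fold and Idh3a 1.53-fold higher and Cxxc5 at least 1.28-fold lower.

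Of 12 genes of base excision repair, the route that refills the site after Tdg, 5 were at least 2-fold higher between the ends and 2 lower (median 0.44). Neil3, a glycosylase, was 9.23-fold, Ung, which removes uracil, 6.24-fold and Fen1, a flap nuclease, 4.12-fold higher. Polb, the repair polymerase, was 2.52-fold lower, with signals of 241 and 242 in c-Kit+ high and middle, against 470.1 in c-Kit- middle cells and 609 in c-Kit- low cells. Ogg1, a glycosylase for oxidised guanine, was 2.02-fold lower with all signals at or under 31.2. Between the middle gates Ung alone passed (2.28-fold). Against c-Kit- middle, none of the 12 passed 2-fold in c-Kit+ high cells. Neil3 was then 1.54-fold, Ung 1.52-fold and Fen1 1.51-fold higher, and Polb was 1.95-fold and Ogg1 1.53-fold lower.

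Of 5 deaminase and Gadd45 genes, 1 was at least 2-fold higher between the ends and 2 lower (median -0.20). Gadd45g, a stress gene, was 6.33-fold lower between the ends and, within c-Kit+ cells, 3.03-fold lower at the high gate. It had signals of 18.7, near the floor, in c-Kit+ high and 56.5 in c-Kit+ middle, against 49.1 and 118. The RNA deaminase gene Apobec1 was 3.85-fold lower between the ends. Gadd45b was 2.03-fold higher. All 3 also passed 2-fold in c-Kit+ high over c-Kit- middle, with Gadd45g 2.63-fold and Apobec1 2.04-fold lower and Gadd45b 2.17-fold higher. A list of 12 genes around S-adenosylmethionine, the source of the methyl group, had 8 measured. Of these, 2 were at least 2-fold higher and none lower between the ends (median 0.78). They were Srm, spermidine synthase, of polyamine synthesis rather than methyl supply (5.04-fold), and Ahcy, which clears the product that inhibits methyltransferases (4.21-fold). Between the middle gates Mat2b, a regulatory subunit of the enzyme that makes S-adenosylmethionine (2.12-fold), and Srm (2.07-fold) passed. Against c-Kit- middle, Srm was 2.53-fold higher in c-Kit+ high cells, and Ahcy, at 1.58-fold, did not pass.

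The genes with the most similar profiles were sought by the root mean square distance of log2 signals, each centred on its own mean over the 4 arrays, among 8834 genes above the floor on every array, with predicted genes, pseudogenes and clone names left out. Nearest to Uhrf1 were Odc1, which starts polyamine synthesis, and Abca13, a transporter gene (distances 0.087 and 0.089). Nearest to Hells were Nadk2, the mitochondrial NAD kinase, and Timm8a1, of mitochondrial import (0.032 and 0.115). Those nearest to Dnmt1 were Rps6, a ribosomal protein, and Rpf2, a ribosome assembly factor (0.024 and 0.036). Prmt1, an arginine methyltransferase, and Slc19a1, the reduced folate carrier, were nearest to Dnmt3b (0.016 and 0.021), and Ints14 and Zfp566 to Dnmt3a (0.050 and 0.051). Nearest to Tet2 were Bach1, a haem-regulated repressor (0.010), and Arhgap25 (0.016). With 4 arrays, many genes share an order, and these distances are a description.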

How the data were processed

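RNA was measured in 4 sorted fractions with 1 array each. The submitters' processing notes name GCOS 1.2, MAS5 and R 3.0.2 and give no role for each. One deposited table has intensity on a linear scale, as MAS5 writes it, for 45101 probe sets. The other deposited table has log2 values for 17419, equal to the log2 of the first shifted by a constant for each array (0.44, 0.49, 0.65 and 0.42, c-Kit+ high first and c-Kit- low last). It lists 14 of the 22 probe sets of single genes used here.

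Trimmed means over the 45037 probe sets left without controls (2% left out at each end) differed by 20.8%, above the limit of 10% set for keeping the authors' scaling, so signals were quantile normalized, floored at the 50th percentile and taken to log2 (Python 3.11.15, numpy, pandas). Symbols came from the platform annotation, updated by gene ID (34741 of 34945 single-gene probe sets matched). Each gene was read from its brightest probe set by mean signal. A comparison left out genes with neither array above the floor. The steps were tested on simulated data. The number of arrays limits the precision, and the spread between sorts is unknown.

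All 9 genes were named with every probe set, as were Kit and Gnl3, at most 3 genes past 2-fold per list, comparison and direction, the 2 most similar genes per gene and examples from the cell type markers. Members, lists, motifs and rules were chosen with earlier results of these data known. Alternatives were the authors' scaling, trimmed mean scaling, the second table, other floors, other probe sets per gene and c-Kit- middle instead of c-Kit- low.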

Additional observations from a re-analysis of the deposited data

How the results depend on the processing

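No paired analysis was possible because each fraction has 1 array. Counts of genes past 2-fold stayed within 1.5 times the reported count in 31 of 33 recomputations. The others were the middle gates (c-Kit+ against c-Kit-) with a 25th percentile floor and with no floor, which each gave 5 genes (4 higher, 1 lower) in place of 3. Fewer signals are then held at the floor, and Tet1 and Tet3, both near it, pass. Signals this near the floor limit what can be said of both genes. The 33 recomputations compare how many genes pass and not which ones. When c-Kit- middle took the place of c-Kit- low, Uhrf1 and Hells alone passed against both by the brightest probe sets. By their other sets, neither gene passed against c-Kit- middle. Dnmt1 passed against both by the set without the _x_at suffix, as did Dnmt3b by its second set. Of single log2 ratios, 192 stayed within the probe-set SD of the reported value, 42 moved further, and no ratio past 2-fold changed sign. Under the authors' scaling the all-gene median log2 ratio was -0.08 (reported 0.09) between the ends, 0.17 (0.02) between the middle gates, -0.27 (0.03) within c-Kit- cells and 0.03 (0.02) within c-Kit+ cells. Of genes past 2-fold, the share that was higher was then 42.5% (reported 54.1%), 57.2% (40.3%), 23.0% (55.0%) and 39.0% (50.2%). The DNA methylation genes past 2-fold numbered 5, 4, 3 and 0, with Tet1 added between the middle gates. Within c-Kit+ cells that share was 33.9% by trimmed mean scaling and 20.9% in the second table.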
